A study of Mus musculus with 8 samples.

Results

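The genes described here are 39 genes of the aryl hydrocarbon receptor (AHR) pathway and of xenobiotic metabolism, measured in the hippocampus of mice given benzo[a]pyrene (BaP). They were taken as a list of gene symbols by role, with no threshold on a measured value. Each symbol was matched to the array probes through the RefSeq accession that the array files give, and where a gene had several probes, the one with the brightest sample signal stood for it. All 39 genes had a probe, among 20656 named genes on the array. Of those, 36 of the 39 genes and 15086 of all named genes passed the filter on dim probes and were tested.

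BaP is a polycyclic aromatic hydrocarbon of combustion smoke. It is a ligand of AHR, a receptor that rests in the cytoplasm with chaperones, moves to the nucleus when bound, pairs with ARNT and binds DNA at xenobiotic response elements, where it raises transcription of *Cyp1a1*, *Cyp1a2*, *Cyp1b1* and other targets. Cytochromes P450 and epoxide hydrolase oxidize and hydrolyze BaP to diol epoxides that can bind DNA, and glutathione S-transferases (GSTs), sulfotransferases, UDP-glucuronosyltransferases and N-acetyltransferases conjugate such compounds so that they can be excreted. Liver and lung are the tissues best known for this response, and in the brain it has mostly been described in blood vessels and barrier cells.

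The samples came from adult male Muta Mouse, a transgenic strain that carries a bacterial reporter gene for scoring mutations in every cell. Mice were 9 weeks old and received either 70 mg/kg body weight of BaP per day in olive oil by oral gavage for 3 days (BaP group) or the oil alone (control group), and the hippocampus was taken 24 h after the last dose. Of 5 mice treated per group, 4 are on the arrays of each group, 1 mouse per array. Sample RNA was labeled with Cy5 and hybridized against a pool of mouse RNA in Cy3 (the universal reference), with no dye swap, on 1 slide of 8 arrays. Values below are log2 of Cy5 over Cy3, so a log2 fold change is the BaP mean minus the control mean on that scale, its standard error is given as SE, and a level of a gene is always its level relative to the reference RNA.

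Each array gave 59305 spots, of which 56.6% to 67.4% had a sample signal well above background, and the arrays correlated with each other at r of 0.969 to 0.99 over all tested probes. Control mouse 1 had 1483 spots marked as outliers by the scanner software, against 310 to 371 on the other arrays. For the 4 arrays on the second row of the slide, which are BaP mice 3 and 4 and control mice 3 and 4, the sample title and the source name state opposite groups. Groups were set by title here. The conflict and the slide row fall on the same arrays and cannot be told apart, so the main differences are also given within each row. All 10 hippocampal neuron markers, such as *Slc17a7* and *Prox1*, were well above background on all 8 arrays.

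The 250 bases before the transcription start, from RefSeq on GRCm38.p6, are shown for 7 genes: *Ahrr*, *Cyp1a1*, *Cyp1a2* and *Cyp1b1*, which are standard AHR targets, the poly(ADP-ribose) polymerase *Tiparp*, the reductase *Nqo1* and the oxidase *Aox1*, which had the largest fold change of the 36 tested genes. Capitals mark the core of the xenobiotic response element, GCGTG or its reverse complement CACGC. Each sequence runs 5′ to 3′ along the strand of its gene.
Tiparp, chr3:65528197-65528446, plus strand: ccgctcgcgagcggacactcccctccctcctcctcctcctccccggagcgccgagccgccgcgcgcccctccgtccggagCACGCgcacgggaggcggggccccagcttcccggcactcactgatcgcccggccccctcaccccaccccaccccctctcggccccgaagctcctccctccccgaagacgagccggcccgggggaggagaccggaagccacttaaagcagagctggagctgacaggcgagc
Ahrr, chr13:74292332-74292581, minus strand: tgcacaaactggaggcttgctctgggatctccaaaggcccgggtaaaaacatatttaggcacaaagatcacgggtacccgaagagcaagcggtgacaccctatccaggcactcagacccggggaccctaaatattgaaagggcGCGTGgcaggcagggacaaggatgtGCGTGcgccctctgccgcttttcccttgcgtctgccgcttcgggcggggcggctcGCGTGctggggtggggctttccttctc
Cyp1a1, chr9:57697363-57697612, plus strand: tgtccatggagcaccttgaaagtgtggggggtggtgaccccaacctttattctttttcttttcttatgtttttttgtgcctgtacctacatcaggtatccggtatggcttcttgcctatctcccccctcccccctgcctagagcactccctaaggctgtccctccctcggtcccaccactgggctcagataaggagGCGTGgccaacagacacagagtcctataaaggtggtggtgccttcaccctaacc
Cyp1a2, chr9:57683656-57683905, minus strand: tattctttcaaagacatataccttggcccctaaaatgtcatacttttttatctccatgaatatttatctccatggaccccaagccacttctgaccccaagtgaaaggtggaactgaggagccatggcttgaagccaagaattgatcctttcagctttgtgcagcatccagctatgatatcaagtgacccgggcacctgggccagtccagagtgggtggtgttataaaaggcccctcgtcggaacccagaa
Cyp1b1, chr17:79715062-79715311, minus strand: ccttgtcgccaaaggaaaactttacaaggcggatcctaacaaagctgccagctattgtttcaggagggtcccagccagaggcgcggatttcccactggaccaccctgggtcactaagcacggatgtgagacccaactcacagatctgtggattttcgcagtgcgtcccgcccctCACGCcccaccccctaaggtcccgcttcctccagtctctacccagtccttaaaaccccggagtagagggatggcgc
Nqo1, chr8:107403206-107403455, minus strand: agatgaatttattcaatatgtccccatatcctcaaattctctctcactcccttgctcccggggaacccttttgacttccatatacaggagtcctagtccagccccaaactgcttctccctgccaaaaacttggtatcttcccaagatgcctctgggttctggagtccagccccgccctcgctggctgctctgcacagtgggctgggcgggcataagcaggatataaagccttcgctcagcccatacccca
Aox1, chr1:58029719-58029968, plus strand: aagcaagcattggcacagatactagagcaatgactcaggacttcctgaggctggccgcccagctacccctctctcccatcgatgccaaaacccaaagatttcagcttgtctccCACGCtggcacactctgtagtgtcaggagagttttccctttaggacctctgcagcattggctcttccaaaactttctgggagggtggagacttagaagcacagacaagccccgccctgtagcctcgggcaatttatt

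In these 300-base windows, which run from 250 bases before to 50 bases after the start, the GCGTG core began 170 bases before the start in *Tiparp*, 54 in *Cyp1a1*, 76 in *Cyp1b1* and 137 in *Aox1*, on either strand. *Ahrr* held 3 copies, at 107, 82 and 27 bases before the start, and was the 1 gene of the set with the longer form TNGCGTG. The *Cyp1a2* and *Nqo1* windows held none. A window was given for 31 of the 39 genes, and 13 of them (41.9%) held the core on either strand, against 35.2% of 27025 genes. The antioxidant response element core TGACNNNGC was in 5 windows of the set (16.1%), against 14% of all genes, and no copy of the GCGTG core in the set overlapped an E-box (CACGTG). These shares lay near those of all genes, and a match of letters is a description of the window only.

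Most of the pathway was detectable in hippocampus, and the exceptions included the best known AHR targets. The probes of 35 genes were well above background on all 8 arrays. *Ahrr*, the repressor that competes with AHR for ARNT, was well above background on 7 arrays and missed it in BaP mouse 4. The P450 genes *Cyp1a1* and *Cyp1a2* and the UDP-glucuronosyltransferase gene *Ugt1a6a* were well above background on none. The *Cyp1a1* spot had a Cy5 signal of 64 to 104 with a local background of 66 to 69, *Cyp1a2* had 62 to 107 against 67.5 to 79, and *Ugt1a6a* had 68 to 105 against 65 to 69. In each of these 3 genes the brightest spot was on a control array, and no fold change is given for them. The reference RNA was well above background on all 8 arrays for *Ugt1a6a* and on none for *Cyp1a1* and *Cyp1a2*. The absence of signal in these spots limits what the arrays can detect and does not show that the transcripts were absent.

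**Figure D1:**
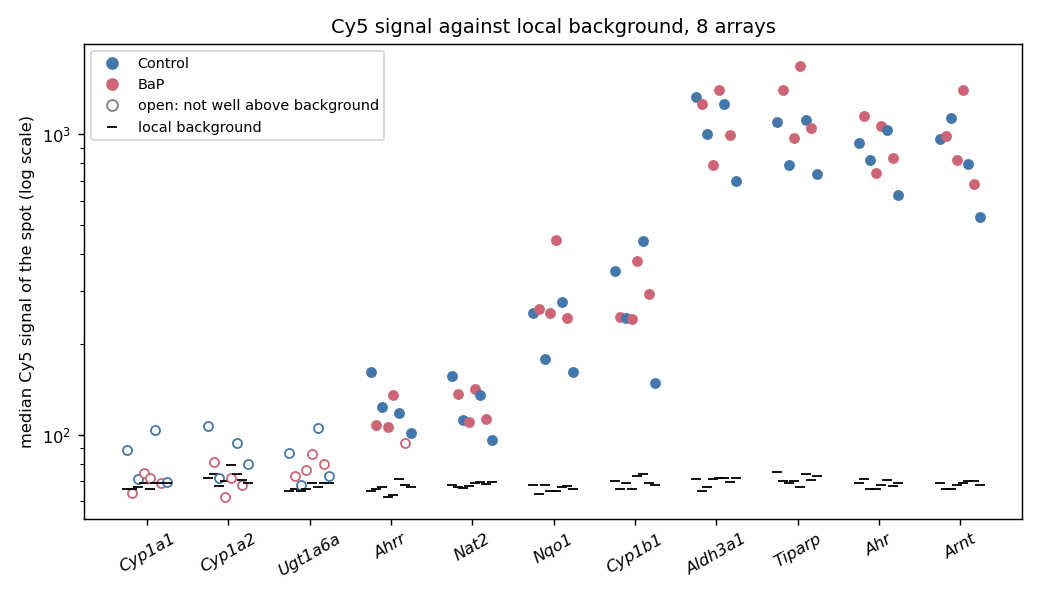
Median Cy5 signal of the spot (log scale) on each of the 8 arrays for 11 genes of the pathway, with the local background of the same spot as a black dash. Open points were not well above background: *Cyp1a1*, *Cyp1a2* and *Ugt1a6a* have no filled point, and *Ahrr* has 1 open point, BaP mouse 4. Signals are as deposited, before normalization, and different probes cannot be compared in level.

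Relative to the universal reference RNA, 15 of the 36 detected genes were above it on all 8 arrays, 18 were below it on all 8, and 3 had arrays on both sides. The highest mean log2 ratios were those of *Sult4a1*, a brain sulfotransferase, at 5.70 (range 5.43 to 5.93), *Cyp7b1*, which hydroxylates oxysterols, at 5.36 (4.83 to 5.63), and *Sult1a1*, a phenol sulfotransferase, at 3.72 (3.36 to 3.96). The *Cyp7b1* ratio rests on a reference signal that was not well above background on any array. For *Sult1a1* the reference was well above background on all 8 arrays but also dim. Its log2 Cy3 signal was 6.64 to 6.92, against 6.27 to 6.53 for *Cyp7b1*. The lowest were *Gsta3* at -3.02, *Gstm2* at -2.88 and *Cyp1b1* at -2.29. Without a dye swap, these ratios include any dye bias of the probe. Spread between mice of a group differed widely between genes: the within-group SD was 0.42 for *Cyp1b1* and 0.41 for *Gsta3*, against 0.06 for *Cbr1* and 0.09 for *Ahr*.

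No gene of the set passed the call between BaP and control, which asked for 1.5-fold and an adjusted p of 0.05, and the lowest adjusted p was 0.497 (*Gstt2*, limma with Benjamini-Hochberg adjustment over 32600 probes). On the whole array 3 probes passed (0.0092%), all of them lower in BaP. At an unadjusted p of 0.05, 9 of the 36 genes differed (25%), 8 higher and 1 lower, where 8.69% of all tested probes did, 4.66% higher and 4.04% lower. The genes were chosen with earlier results of these data known, so these shares describe the set and do not test it. Each gene is counted by its brightest probe, while the share of all probes covers every tested probe. The 8 higher genes were *Tiparp*, *Nqo1*, *Ephx1*, *Aox1*, *Por*, *Gstm5*, *Gstm7* and *Gstt2*, and the lower one was *Cbr3*. That count rested on a few mice: it was 3 without BaP mouse 2, 3 without BaP mouse 3 and 4 without control mouse 2, and at most 11 with any 1 mouse left out. Groups did not overlap for 2 genes, *Tiparp* and *Aox1*, which is 5.56% of the 36 against 5.08% of all probes (2.59% higher and 2.49% lower), a share near the background. *Aox1* was the 1 gene that differed by 1.5-fold or more, against 1.04% of all probes.

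Of the 36 genes, 24 had a log2 fold change above 0 and 12 below, against 49.5% of all probes above 0 and 50.5% below, and these counts became 34 and 2 when arrays were centered on their median, a scaling that moved the median of all probes from -0.00165 to 0.168. The median log2 fold change was 0.0828 for the set and -0.00165 for all probes. For the set it was 0.0529 without control mouse 4, 0.0536 without BaP mouse 3 and 0.128 without BaP mouse 1, 0.155 in slide row 1 and 0.0598 in row 2, and 0.0459 in the fit with a choroid plexus covariate described below. The median size of a change, without its sign, was 0.12 in the set and 0.0937 over all probes, and the median standard error was also larger, 0.139 against 0.106. In bulk tissue, fewer cells of a type and less RNA per cell cannot be told apart in any of these values. These counts changed with the label that named the group. Grouping by source name gave 16 genes above 0, and 1 gene, *Gstm6*, at an unadjusted p of 0.05, where 1431 of 32600 probes were. Erythroid markers, given below, separated the groups by title in both slide rows.

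**Figure D2:**
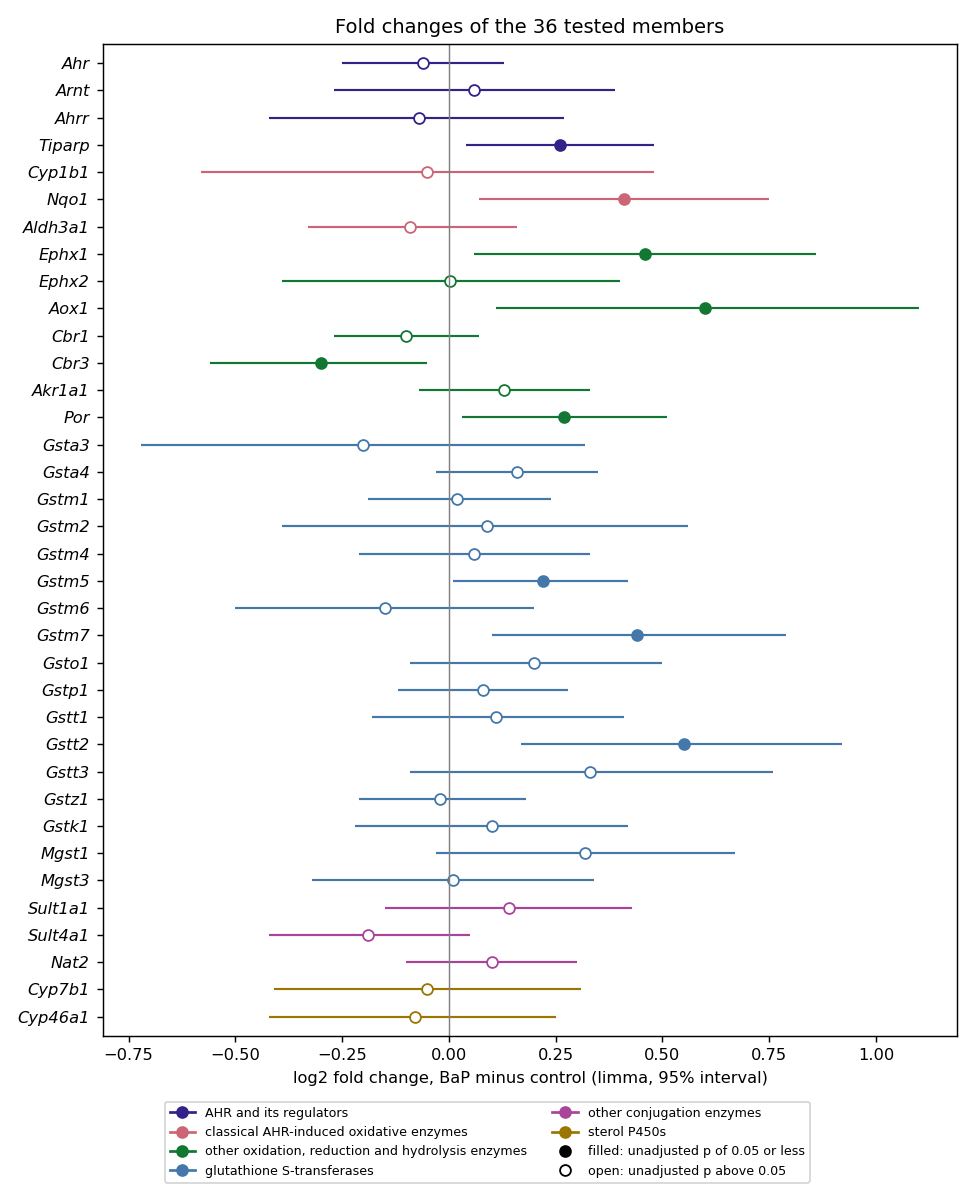
Log2 fold change (BaP minus control, 4 mice per group) of the 36 tested genes, ordered by role, with the 95% interval from limma. Filled points have an unadjusted p of 0.05 or less: 8 lie above 0 and *Cbr3* lies below. The intervals of *Ahr*, *Arnt*, *Ahrr*, *Cyp1b1* and *Aldh3a1* include 0.

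The receptor gene and the brightest probe of its DNA-binding partner had overlapping groups, and a second probe of the partner did not. *Ahr* had log2 ratios of -1.39, -1.45, -1.39 and -1.49 in control mice 1 to 4 and -1.40, -1.52, -1.65 and -1.39 in BaP mice 1 to 4, with overlapping groups. Its log2 fold change was -0.06 (95% interval -0.25 to 0.13, limma), so changes of more than 1.09-fold up or below 0.842-fold lie outside the interval. *Arnt* had -0.75, -0.56, -1.18 and -1.13 in control mice and -0.94, -0.70, -0.68 and -1.05 in BaP mice. These values overlapped, and the log2 fold change was 0.06 (95% interval -0.27 to 0.39, limma). A second, dimmer *Arnt* probe gave -0.16 (SE 0.08, unadjusted p = 0.067 in limma), so the 2 probes differ in sign. Groups of this second probe did not overlap, with BaP lower (exact permutation test, 2-sided, p = 0.0286, the smallest possible), where 5.08% of all probes had groups without overlap. *Ahrr*, which is itself induced by AHR in other tissues, had -0.15, -0.19, -0.85 and -0.48 in control mice and -0.59, -0.28, -0.46 and -0.64 in BaP mice, a fold change of -0.07 (95% interval -0.42 to 0.27, limma) on overlapping groups.

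*Tiparp* encodes a poly(ADP-ribose) polymerase that is induced by AHR and feeds back on it by modifying the receptor. Its log2 ratios were -1.56, -1.87, -1.62 and -1.60 in control mice and -1.51, -1.46, -1.23 and -1.41 in BaP mice. Every BaP mouse was above every control mouse, and BaP mouse 1 and control mouse 1 lay closest together. The log2 fold change was 0.26 (SE 0.10), or 1.2-fold with a 95% interval of 1.03 to 1.39, and the adjusted p from limma was 0.53 (exact permutation test, 2-sided, p = 0.0286, the smallest that 70 assignments of 8 arrays allow). It was 0.23 within slide row 1 and 0.29 within row 2. The second *Tiparp* probe gave 0.03 (SE 0.10), and the 2 probes' fold changes differed by 0.22 (exact permutation test, 2-sided, p = 0.0571, adjusted 0.429 over 15 genes with several probes).

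Among the oxidative enzymes that AHR classically induces, *Nqo1* was the 1 gene of 3 tested with an unadjusted p of 0.05 or less. *Nqo1* encodes the quinone reductase that converts BaP quinones to hydroquinones, and it is also a target of NRF2, the regulator of the oxidative stress response. Log2 ratios of *Nqo1* were -2.14, -2.48, -1.95 and -2.05 in control mice and -2.12, -1.64, -1.48 and -1.73 in BaP mice. BaP mice 2, 3 and 4 were above all controls, and BaP mouse 1 lay among the controls. This gave a log2 fold change of 0.41 (SE 0.15, limma adjusted p = 0.528; exact permutation test, 2-sided, p = 0.0857), with 0.43 in slide row 1 and 0.39 in row 2.

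*Cyp1b1*, the P450 that converts BaP to its diol epoxide outside the liver, had log2 ratios of -2.05, -2.34, -1.76 and -2.90 in control mice and -2.80, -2.23, -2.20 and -2.02 in BaP mice. The lowest mouse of the 8 was control mouse 4 and the highest was control mouse 3, so the BaP values lay inside the control range. Its log2 fold change was -0.05 with a 95% interval of -0.58 to 0.48 (limma), which is 0.671-fold to 1.39-fold, and it was -0.32 in slide row 1 and 0.22 in row 2. With 1 mouse left out it ranged from -0.26 to 0.12. *Aldh3a1*, an aldehyde dehydrogenase, had -1.05, -1.35, -1.05 and -1.34 in control mice and -1.39, -1.42, -1.25 and -1.08 in BaP mice. These groups overlapped, with a log2 fold change of -0.09 (95% interval -0.33 to 0.16, limma) and -0.26 (SE 0.12) from its second probe.

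Of the 7 other enzymes of oxidation, reduction and hydrolysis, 4 were past an unadjusted p of 0.05, 3 higher and 1 lower, where 8.69% of all probes were, and these 4 are among the 9 whose count fell to 3 or 4 without certain mice. *Aox1* encodes aldehyde oxidase, a molybdenum enzyme that oxidizes aldehydes and nitrogen heterocycles. Its log2 ratios were -0.31, -0.36, -0.26 and -1.08 in control mice and -0.22, 0.08, 0.65 and -0.11 in BaP mice. The groups did not overlap, but the nearest mice, control mouse 3 and BaP mouse 1, were close, while control mouse 4 and BaP mouse 3 stood far out on either side. *Aox1* had the largest fold change of the 36 tested genes, 0.60 on the log2 scale (SE 0.22, limma adjusted p = 0.521), which is 1.52-fold with a 95% interval of 1.08 to 2.14. The log2 fold change was 0.41 without control mouse 4, 0.42 without BaP mouse 3, 0.27 within slide row 1 and 0.94 within row 2.

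*Ephx1* encodes the microsomal epoxide hydrolase, which acts on the first epoxide of BaP. In control mice its log2 ratios were -0.24, -0.65, -0.35 and -0.62, and in BaP mice they were -0.52, 0.18, 0.37 and -0.06. As with *Nqo1*, BaP mice 2, 3 and 4 were above all controls and BaP mouse 1 was within their range. BaP was higher by 0.46 on the log2 scale (SE 0.18, limma adjusted p = 0.539) and the second probe gave 0.50 (SE 0.14), while the first gave 0.28 in slide row 1 and 0.64 in row 2. *Por*, the reductase that passes electrons to all microsomal P450 enzymes, had log2 ratios of -0.79, -1.0, -0.94 and -1.10 in control mice and -0.92, -0.58, -0.51 and -0.75 in BaP mice. BaP mouse 1 again lay among the controls, and the log2 fold change was 0.27 (SE 0.11, limma adjusted p = 0.548), with 0.15 in row 1 and 0.39 in row 2.

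*Cbr3*, a carbonyl reductase that is close in sequence to *Cbr1*, was the 1 gene lower at an unadjusted p of 0.05. It had log2 ratios of 1.78, 1.28, 1.45 and 1.46 in control mice and 1.1, 1.11, 1.22 and 1.33 in BaP mice. The overlap came from control mouse 2, which was below BaP mouse 4. BaP was lower, at -0.30 on the log2 scale (SE 0.11, limma adjusted p = 0.528), with -0.43 in slide row 1 and -0.18 in row 2. *Cbr1* had -0.10 (SE 0.08), and *Akr1a1*, an aldehyde reductase, had 0.13 (SE 0.09). The soluble epoxide hydrolase gene *Ephx2* had the same mean in both groups within the error, with a 95% interval of -0.39 to 0.40 (limma).

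**Figure D3:**
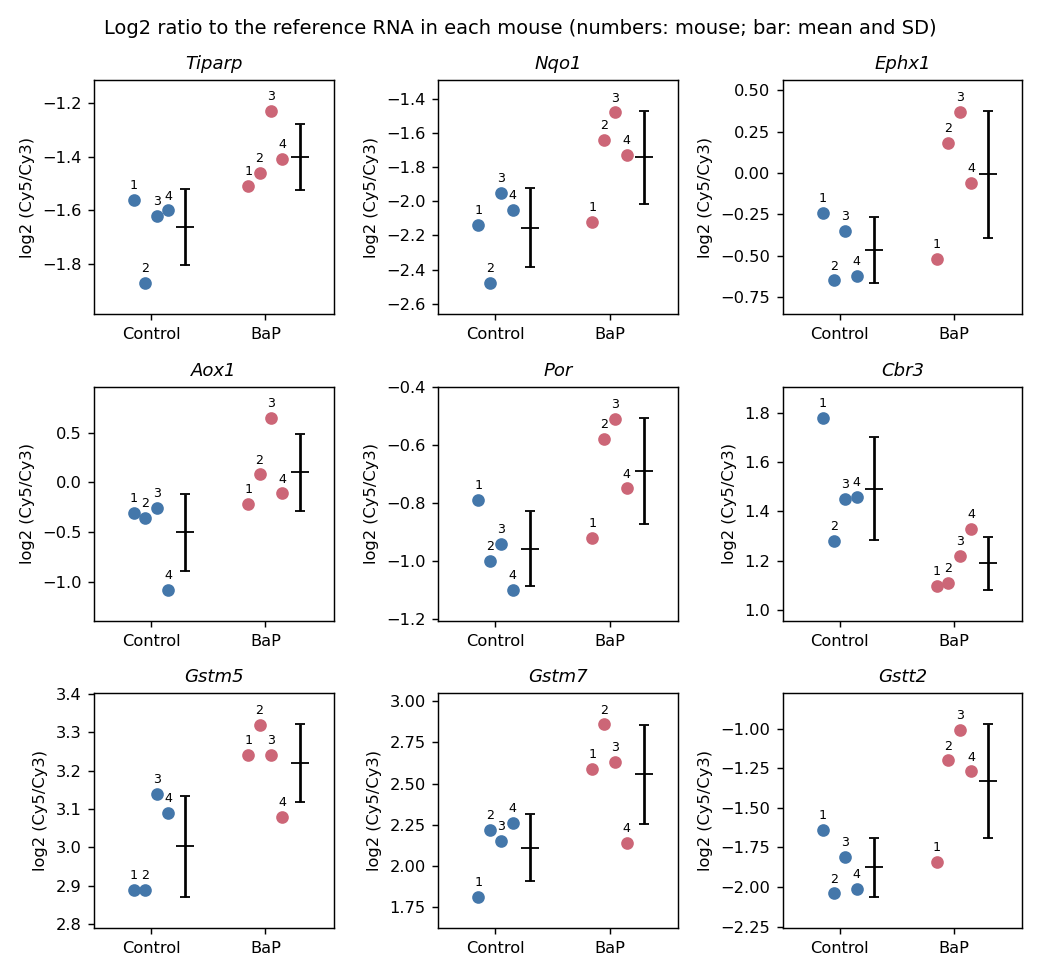
Log2 ratio to the reference RNA in each of the 4 control and 4 BaP mice for the 9 genes with an unadjusted p of 0.05 or less, with the mean and SD of the group beside the points and the mouse number above each. In *Tiparp* and *Aox1* the groups do not overlap, and in *Nqo1*, *Ephx1*, *Por* and *Gstt2* BaP mouse 1 lies among the controls.

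The 17 glutathione S-transferases, which attach glutathione to epoxides and other electrophiles, were all well above background on all 8 arrays. Of these, 14 had a log2 fold change above 0 and 3 below, a split that became 17 and 0 under median centering and 8 and 9 when groups were set by source name. The median was 0.0957 with a range of -0.20 to 0.55, and 3 were past an unadjusted p of 0.05, all higher. Over all probes, 49.5% were above 0, 8.69% were past that threshold and 4.66% were past it and higher. *Gstt2*, of the theta class, had log2 ratios of -1.64, -2.04, -1.81 and -2.01 in control mice and -1.84, -1.20, -1.01 and -1.27 in BaP mice. BaP mouse 1 lay among the controls and the other BaP mice were above them. The log2 fold change was 0.55 (SE 0.17, limma adjusted p = 0.497), or 1.46-fold with a 95% interval of 1.13 to 1.89, and it was 0.32 in slide row 1 and 0.77 in row 2.

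The mu class genes *Gstm5* and *Gstm7* followed another order of mice. *Gstm7* had log2 ratios of 1.81, 2.22, 2.15 and 2.26 in control mice and 2.59, 2.86, 2.63 and 2.14 in BaP mice. Here BaP mouse 4 lay among the controls. The difference was 0.44 on the log2 scale (SE 0.16, limma adjusted p = 0.513), 0.71 in slide row 1 and 0.18 in row 2, and its second probe gave 0.28 (SE 0.12). *Gstm5*, the brain and testis form, had 2.89, 2.89, 3.14 and 3.09 in control mice and 3.24, 3.32, 3.24 and 3.08 in BaP mice, and BaP mouse 4 was again the one within the control range. Its log2 fold change was 0.22 (SE 0.09, limma adjusted p = 0.558), with 0.39 in row 1 and 0.04 in row 2. The mu class genes lie in 1 cluster and are close in sequence, and cross-hybridization between them was not examined.

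In the other mu class genes the log2 fold changes were 0.02 for *Gstm1*, 0.09 for *Gstm2*, 0.06 for *Gstm4* and -0.15 for *Gstm6*. In *Gstm6* the slide rows went in opposite directions, at 0.19 and -0.49. The alpha class genes *Gsta3* and *Gsta4* had -0.20 (SE 0.23) and 0.16 (SE 0.09). In the theta class, *Gstt3* had 0.33 (95% interval -0.09 to 0.76) and *Gstt1* 0.11 (95% interval -0.18 to 0.41, limma). The membrane-bound *Mgst1*, which also reduces lipid peroxides, had 0.32 (95% interval -0.03 to 0.67, limma) and 0.30 from its second probe, and *Mgst3* had 0.01. The pi, omega, zeta and kappa class genes *Gstp1*, *Gsto1*, *Gstz1* and *Gstk1* had 0.08, 0.20, -0.02 and 0.10.

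The remaining conjugation enzymes and the sterol P450s had no gene at an unadjusted p of 0.05. *Sult1a1* had a log2 fold change of 0.14 (95% interval -0.15 to 0.43, limma). *Sult4a1*, which is expressed in neurons, had -0.19 (95% interval -0.42 to 0.05, limma), and *Nat2*, an arylamine N-acetyltransferase, had 0.10 (95% interval -0.10 to 0.30, limma). *Cyp46a1*, the neuronal enzyme that converts cholesterol to an exported hydroxylated form, had -0.08 (95% interval -0.42 to 0.25, limma). *Cyp7b1*, highly expressed in hippocampus, had -0.05 (95% interval -0.41 to 0.31, limma), and its slide rows gave 0.18 and -0.28.

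Of 15 genes with several tested probes, 3 (*Arnt*, *Gstm6* and *Sult1a1*) had probes whose log2 fold changes differed in sign, and none of the 15 differences between probes had an adjusted p of 0.05 or less (exact permutation tests over 8 arrays, 2-sided, lowest adjusted p 0.429), though a gene at the smallest possible exact p of 0.0286 could pass this threshold only if most of the 15 reached it. *Ephx1*, *Mgst1* and *Gstm7* had both probes above 0 at 0.28 to 0.50, while *Tiparp* had 0.26 and 0.03.

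**Figure D4:**
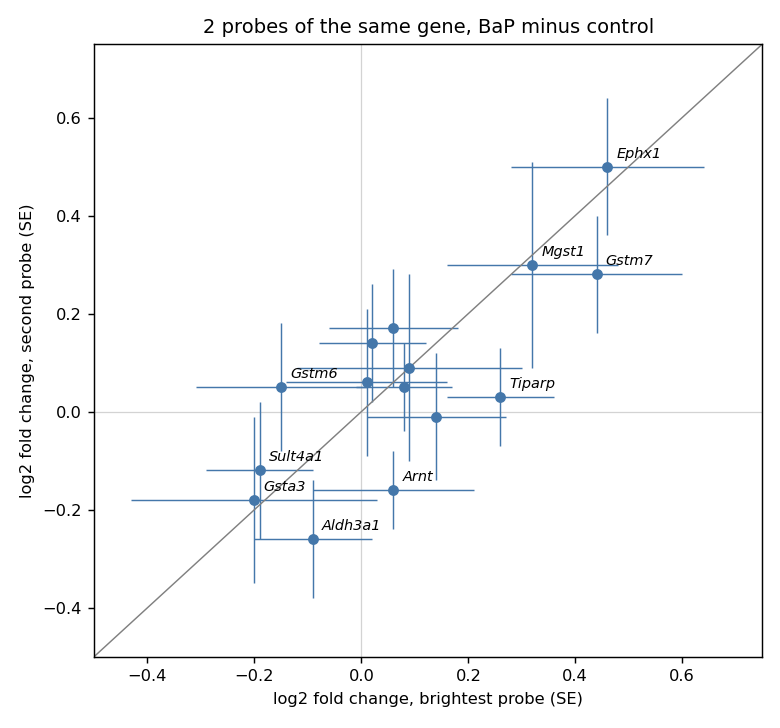
Log2 fold change (BaP minus control) of the brightest probe against that of the second probe for the 15 genes with several tested probes, with standard errors. The line marks equal values: *Ephx1* and *Mgst1* lie near it, *Tiparp* and *Arnt* lie below it, and *Gstm6* lies above it.

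In 6 of the 8 higher genes, BaP mouse 1 was the lowest of the BaP mice and BaP mouse 3 the highest (*Tiparp*, *Nqo1*, *Ephx1*, *Aox1*, *Por* and *Gstt2*). The 8 genes were picked for being higher in BaP, and the share of all probes with this order was not counted. Some genes of the set outside the 8, such as *Gstt3* and *Gstk1*, had the same order. Markers of choroid plexus, the epithelium that makes cerebrospinal fluid beside the hippocampus, had the same lowest and highest BaP mouse. The mean log2 ratio of 10 choroid plexus genes was 3.22, 2.16, 3.66 and 1.91 in control mice 1 to 4 and 1.38, 4.29, 4.75 and 3.70 in BaP mice 1 to 4. All 10 genes had higher means in BaP, 8 by 1.5-fold or more, with overlapping groups for the list (difference 0.79, exact permutation test, 2-sided, p = 0.371), and none had an unadjusted p of 0.05 or less (limma). Of the 10, 9 were well above background on all 8 arrays. Endothelial markers also had BaP mouse 1 lowest and BaP mouse 3 highest of the BaP mice, over a narrower range, with means of 2.10, 1.96, 2.15 and 1.85 in control mice and 1.85, 2.15, 2.25 and 2.10 in BaP mice. These are means of 9 genes, since *Kdr* had a missing value. Of the 9, *Slco1c1* had the largest SD in BaP mice, 0.72 with a range of 4.11 to 5.72. The order without *Slco1c1* was not examined.

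A fit with the choroid plexus mean of each array as a covariate was added after the data were seen. At an unadjusted p of 0.05 in limma, 6 of the 36 genes differed in this fit, all of them among the 9. *Tiparp*, *Gstm5* and *Por* did not (unadjusted p of 0.0656, 0.0707 and 0.0719 in limma). Of all 32600 tested probes, 2211 were past that threshold in the same fit. The 9 genes had been picked by the same contrast on the same arrays, so the count of 6 describes them and does not test them. The log2 fold change of *Aox1* went from 0.60 to 0.42, of *Gstt2* from 0.55 to 0.37, of *Ephx1* from 0.46 to 0.27, of *Nqo1* from 0.41 to 0.28 and of *Por* from 0.27 to 0.18. *Gstm7* (0.44 and 0.45), *Gstm5* (0.22 and 0.21) and *Tiparp* (0.26 and 0.21) moved less, and *Cbr3* went from -0.30 to -0.35. Genes outside the 9 moved as well, such as *Gstt3* from 0.33 to 0.13, *Mgst1* from 0.32 to 0.16, *Gstm2* from 0.09 to -0.14 and *Cyp1b1* from -0.05 to -0.27. The sign changed in 4 of the 36 genes, none of them among the 9. Adjusted p-values in this fit were 0.668 to 0.749 for the 9 genes (limma). The covariate measures how the values move together on 8 arrays, and the part of choroid plexus tissue in the differences was not tested in any other way.

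**Figure D5:**
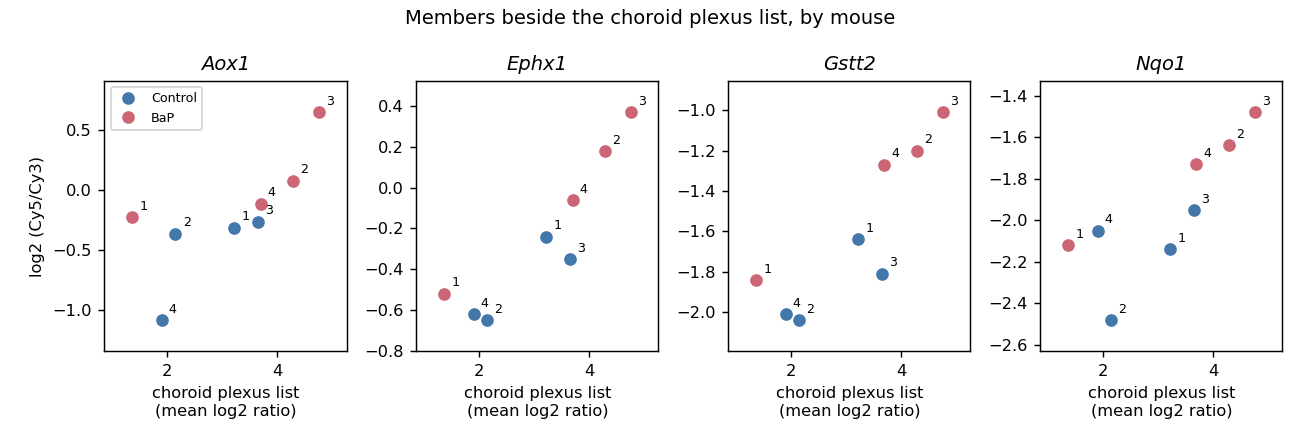
Log2 ratio to the reference RNA of 4 genes against the mean log2 ratio of 10 choroid plexus genes on the same array, with the mouse number beside each point. BaP mouse 1 is lowest and BaP mouse 3 highest on the choroid plexus axis, and among the BaP mice also in each gene. The 4 genes were taken from those with this order, which *Gstm5* and *Gstm7* did not have.

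Erythroid genes also separated the groups: the mean log2 ratio of 6 tested genes was 3.81 to 4.00 in control mice and 2.89 to 3.20 in BaP mice (difference -0.89, exact permutation test, 2-sided, p = 0.0286), with 5 of the 6 lower without overlap. Of the 10 marker lists, this was the 1 that separated the groups by title, and it did so in both slide rows, so that under the source names each group would hold mice of both ranges. Their part in the results above was not tested. The means of astrocyte, oligodendrocyte, microglia, endothelial, ependymal, meningeal and thalamic markers overlapped between the groups, with differences of -0.10 to 0.30.

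Around these 39 genes, 95 of 110 further genes of the pathway were tested, and none passed the call (limma, lowest adjusted p 0.431). At an unadjusted p of 0.05, 12 of the 95 differed (12.6%), 9 higher and 3 lower, and 4 had groups that did not overlap (4.21%), both near the shares of all probes given above (8.69% and 5.08%). By role, 3 of 17 chaperones, partners and coactivators of AHR had an unadjusted p of 0.05 or less, as did 0 of 9 other AHR-responsive genes, 2 of 22 other P450s and electron donors, 2 of 19 carbonyl, aldehyde and amine enzymes, 4 of 19 genes of conjugation and cofactor supply, and 1 of 9 transporters.

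The 4 genes without overlap were *Nrip1*, a corepressor that binds AHR, *Papss1* and *Papss2*, which make the sulfate donor of the sulfotransferases, and *Nnmt*, which methylates nicotinamide. *Papss1* was -0.35 to -0.21 in control mice and -0.09 to 0.03 in BaP mice, a log2 fold change of 0.24 (SE 0.07, limma adjusted p = 0.497). Its partner *Papss2* went the other way, at 2.0 to 2.12 in control mice and 1.59 to 1.87 in BaP mice, or -0.30 (SE 0.09, limma adjusted p = 0.487). *Nnmt* was -2.45 to -2.26 in control mice and -2.82 to -2.56 in BaP mice, or -0.38 (SE 0.09, limma adjusted p = 0.431). *Nrip1* had 0.17 (SE 0.09, limma adjusted p = 0.61).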

How the data were processed

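Hippocampal RNA of 8 male Muta Mouse, 4 control and 4 BaP, was measured on 2-color Agilent arrays. The deposited scanner files hold spot intensity values in both channels from Agilent Feature Extraction 11.0.1.1, with flags (other values of 0 or 1) for background, saturation and outliers. The authors also deposited log2 ratios normalized by locally weighted scatterplot smoothing, used here as an alternative. Their methods name MAANOVA with a false-discovery rate adjustment. Limma took its place here, with an unmoderated gene-wise F test as an alternative.

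Here, median spot signals were background-corrected by normexp with an offset of 50, normalized by loess within each array and averaged per probe, with control spots left out and outlier spots set to missing. Of 55681 probes, 32600 with a Cy5 signal well above background on at least 4 of 8 arrays were tested with limma 3.58.1 in R 4.3.3 (lmFit and eBayes), without blocks or covariates, and adjusted over all 32600 by the method of Benjamini and Hochberg. Intervals are 95% intervals from that fit. Single values were also tested by 2-sided exact permutation over 70 assignments. Probes were named through RefSeq accessions, of which 27229 of 28685 (94.9%) matched. The number of arrays limits the precision.

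Genes are given mouse by mouse where they had an unadjusted p of 0.05 or less, no overlap or a 1.5-fold change, or belong to AHR regulation or its classical targets, and the others are given in brief. Of the further pathway genes, those without overlap are named. Naming of GST paralogs by protein identity was planned and not done. The 39 genes and all lists were chosen with earlier results of these data known. Alternatives covered background correction, normalization, channel, filters, blocks, labels, probes, the test, each mouse left out and, added after the data were seen, a choroid plexus covariate. Summaries and exact tests used Python (version 3.11.15), scipy 1.17.1, numpy 2.4.6 and pandas 2.3.3, and figures used matplotlib 3.10.9. The fit was tested on simulated data.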

Additional observations from a re-analysis of the deposited data

Results flagged for a closer look

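In 2 of 72 groups of 4 mice (36 genes, 2 groups), 1 mouse lay far from the other 3, where chance gives about 3.6 such groups. Control mouse 4 was at -1.08 in *Aox1*, with the other control mice between -0.36 and -0.26, so that its distance to the nearest was 0.872 of the whole range of the group. Control mouse 4 was also apart in *Cbr1*, at 1.27 with the other control mice at 1.44, a distance of 0.982 of the range. Neither spot was marked as an outlier by the scanner software, and the reference channel of both lay within the range of the other arrays.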

How the results depend on the processing

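No gene of the set passed the call under any alternative run, apart from the mean over a gene's probes, for which calls were not counted. The count of 3 called probes on the whole array was 0 with Agilent's processed signals, the gene-wise F test, groups by source name and within slide row 1 or row 2, 6 with the Cy5 channel alone, 5 without a filter, and 1 to 3 with each mouse left out. The 2834 probes at an unadjusted p of 0.05 became 6159 under median centering, 1431 by source name and 1717 to 3490 with each mouse left out. The 9 genes of the set at that threshold became 15 under median centering (15 higher, 0 lower, with a median of 0.318 on the log2 scale), 4 by the gene-wise F test, 1 by source name, 3 within slide row 1, 8 within row 2 (5 of them among the 9) and 3 to 11 with each mouse left out. The signs of the 9 held under every alternative except groups by source name, where 5 changed. Replicate numbers did not pair the mice (correlations of deviations -0.354 to 0.032 for the 4 numbers), and a fit with the replicate block gave 7 genes, 2382 probes and 2 calls. With 4 mice per group and a median standard error of 0.139, small differences were not detectable, and spots near background (*Ahrr*, *Cyp1a1*, *Cyp1a2* and *Ugt1a6a*) are limited by signal. The cause of these shifts was not tested.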

Other observations

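Among the further pathway genes whose groups overlapped, the larger log2 fold changes at an unadjusted p of 0.05 were those of *Inmt*, an indole and thioether methyltransferase, at 0.97 (SE 0.30, limma adjusted p = 0.497), and *Cyp26b1*, which clears retinoic acid, at 0.63 (SE 0.23, limma adjusted p = 0.521). *Inmt* was -3.27 to -2.58 in control mice and -2.80 to -1.44 in BaP mice. *Slco1a4*, an organic anion carrier of brain endothelium, had 0.36 (SE 0.13), *Cul4b*, the scaffold of a ubiquitin ligase that includes AHR, had 0.34 (SE 0.10), and the retinal dehydrogenase gene *Aldh1a1* had 0.32 (SE 0.15). *Hsp90aa1*, which encodes a chaperone of the resting receptor, had -0.23 (SE 0.09). The 6 genes had adjusted p-values of 0.497 to 0.573 in limma and were chosen for mention after their values were seen.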
